A study of Mus musculus with 2 samples.

Results

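Nucleotide excision repair genes were followed in mouse embryonic stem (ES) cells depleted of the histone variant H2A.B. The group held 10 genes, Xpc, Ddb2, Ercc6, Ercc8, Xab2, Ercc2, Ercc3, Xpa, Ercc1 and Ercc5, and its members were the probe sets that named exactly 1 of these genes in the platform annotation. There were 20 such probe sets among the 45118 of the table, and they covered 9 of the 10 genes, out of 16563 genes with a usable value. Ercc6, which encodes the Cockayne syndrome B protein, was named by 0 probe sets, also when searched by gene identifier, so no value is given for it. The members were selected on their shared role in repair with the log2 difference of Xab2 between these arrays (4.28) already known, so all differences below are descriptions and none supports the choice of the group.

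Feeder-free mouse ES cells, grown in serum with leukaemia inhibitory factor, carried an MSCV-neo retrovirus with a short hairpin under the U6 promoter. In the control knockdown cells the hairpin had a control sequence, and in the H2A.B knockdown cells it was directed at H2A.B; both were kept in G418 for 2 to 4 weeks, and 2 µg of total RNA of each went to an Affymetrix array. There was 1 array per group and hence no spread between replicates and no test, and the labels name neither the ES cell line nor the hairpin's sequence and number the knockdown 1 without saying what the number counts. H2ab1, H2ab2 and H2ab3, the H2A.B genes, were named by 0 probe sets, so the depletion could not be checked here. Among ES cell markers Pou5f1, Sox2 and Nanog differed by -0.01, 0.03 and -0.09 on the log2 scale (knockdown minus control). On the brightest probe sets the widest differences were those of Esrrb (0.33), Lin28a (0.28) and Klf4 (0.16). The dimmer probe sets of these last genes differed by 0.18, 0.04 and 0.11. All 11 measured markers of 12 listed lay above the 75th percentile of the control array, and on their brightest probe sets they ran from 10.14 to 14.24 there and from 10.12 to 14.22 on the knockdown array. Of 10 fibroblast or feeder markers 1 lay above that percentile (3.65 to 8.92 on the control array, 3.70 to 8.23 on the knockdown array), and of 11 measured markers of differentiated lineages 2 did (3.66 to 9.66, and 3.99 to 8.88). All 3 differentiation markers past the intensity filter used below were lower on their brightest probe sets (Pax6 at -0.78, Krt18 at -0.29, Eomes at -0.11). Of all 8282 genes past the filter 4191 were lower. Among the markers below the filter Nes (0.33), Mixl1 (0.09) and Sox17 (0.01) were higher on their brightest probe sets. Cdx2, Foxa2, Gata4, Gata6 and Sox1 were lower there, from -0.14 to -0.01. The other Pax6 probe sets differed by 0, -0.03 and 0.03 and that of Eomes by -0.10. Of 4 fibroblast markers past the filter 3 were higher and 1, Fbln1, differed by -0.69 on its brightest probe set. Its other probe sets differed by -0.04 and -0.13. The part of these markers in the results was not tested.

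Nucleotide excision repair removes bulky lesions such as ultraviolet photoproducts. In the global branch Xpc and the Ddb2 complex find the lesion anywhere in the genome; in the transcription-coupled branch a stalled RNA polymerase II is recognised with the Cockayne syndrome proteins Ercc6 and Ercc8, and Xab2 joins there. Both branches then use the TFIIH helicases Ercc3 and Ercc2 to open the DNA, Xpa to verify the damage, and the nucleases Ercc1-Ercc4 and Ercc5 to cut out the damaged strand before the gap is filled and sealed. Xab2 binds Xpa and is also part of a complex with Aqr, Isy1 and Ppie that works in splicing.

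The promoter windows of Xab2 and Xpa are shown because Xab2 had the largest difference of the group and Xpa, its binding partner, was the only member with several probe sets that were all higher on the knockdown array. Each window holds the 250 bases before the RefSeq start site (GRCm38.p6), written along the gene's strand; capitals mark matches on either strand to GGGCGG (GC box), CCGGAA (ETS core), CCAAT and TATAAA, which do not contain one another. The Xab2 window is chr8:3621297-3621546 on the minus strand, and the Xpa window is chr4:46196312-46196561 on the minus strand.
Xab2: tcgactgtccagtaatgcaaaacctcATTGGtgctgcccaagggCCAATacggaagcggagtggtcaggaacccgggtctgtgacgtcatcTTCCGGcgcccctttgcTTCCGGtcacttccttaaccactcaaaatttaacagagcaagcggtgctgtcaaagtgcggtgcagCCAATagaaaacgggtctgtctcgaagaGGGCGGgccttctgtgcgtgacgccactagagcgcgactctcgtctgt
Xpa: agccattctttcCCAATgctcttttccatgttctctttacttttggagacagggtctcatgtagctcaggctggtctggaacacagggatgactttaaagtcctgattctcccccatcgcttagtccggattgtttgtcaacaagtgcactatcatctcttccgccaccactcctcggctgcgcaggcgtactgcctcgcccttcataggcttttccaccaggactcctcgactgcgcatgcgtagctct
The Xab2 window had 1 match to the GC box, 2 to the ETS core, 3 to CCAAT and 0 to TATAAA, with 18 CpG sites. The Xpa window had 1 match to CCAAT and 0 to the other motifs, with 10 CpG sites. Among all 32851 windows of this length, 32.7% held a GC box match, 12.0% an ETS core match, 33.8% a CCAAT match and 12.4% a TATAAA match, and the median window had 6 CpG sites. These matches describe letters only; the arrays carry no measurement at the promoters.

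Values are log2 intensities after RMA (robust multi-array average), and every difference is knockdown minus control, so that 1 is a 2-fold difference. Of the 20 probe sets 7 were above 0 and 13 below, with a median difference of -0.07 against -0.006 over all usable probe sets. Within 0.5 of 0 lay 16 of them, and their median absolute difference was 0.31. Over all usable probe sets naming 1 gene that median was 0.07, so the members lay further from 0. Among genes past the filter given below, on brightest probe sets, 92.6% lay within 0.5. By the 2-fold rule 1 probe set was higher, a probe set of Xab2, and 0 were lower; over all usable probe sets naming 1 gene the shares were 1.12% and 3.07%. The nearest to the rule on the other side was Ercc3, at -0.86. By a 1.5-fold rule 2 probe sets were lower, of Ercc3 and Xab2, where 6.23% of all were, and on the brightest probe set 1 gene, Ercc3, where 3.84% of genes past the filter were. On each gene's brightest probe set 4 genes were above 0 and 5 below; 1 was 2-fold higher and 0 lower. All 9 had a mean over both arrays above a filter at the median gene intensity (6.73), but Xab2 only through its knockdown value (6.56 in the control) and Ercc3 only through its control value (6.48 in the knockdown). The shares among all 8282 genes past the filter were 0.676% higher and 1.28% lower, and nothing is read from them about a gene that passed in this way.

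**Figure D1:**
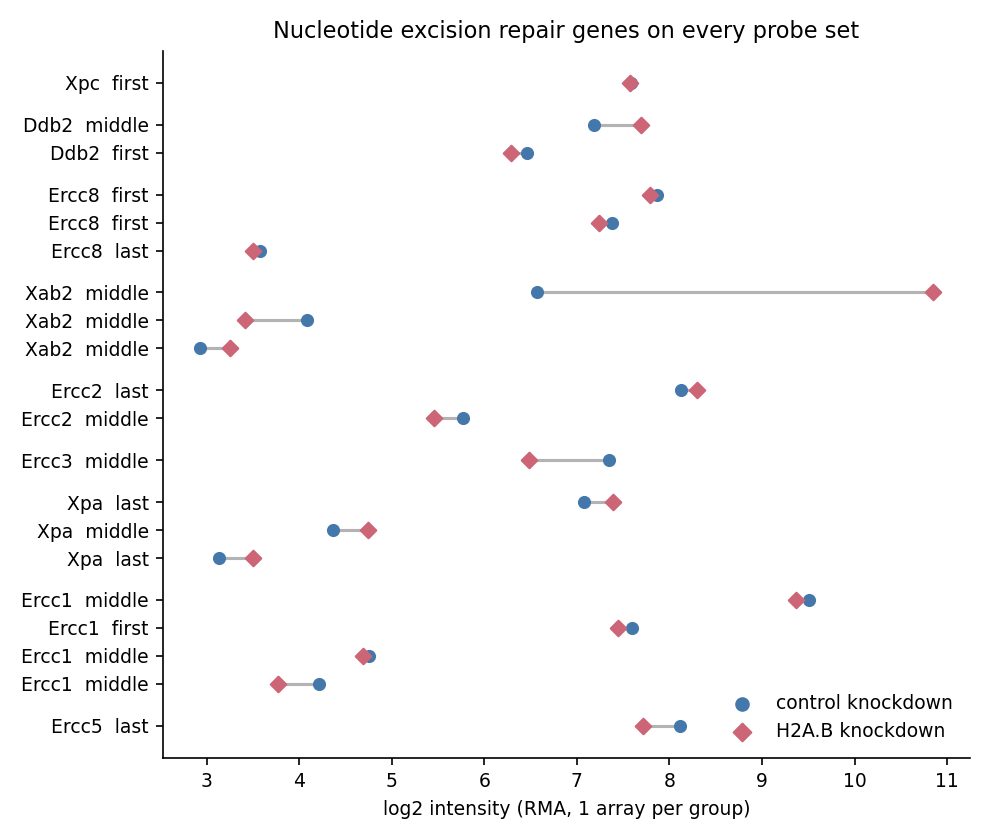
Log2 intensity of each of the 20 probe sets (horizontal axis) on the control array (circles) and the H2A.B knockdown array (diamonds), with 1 array per group and therefore no error bars; each line names the gene and the section of the deposited table. The Xab2 pair at 6.56 and 10.85 stands apart, while Xpa is to the right and Ercc1 and Ercc8 to the left of control on every probe set.

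The deposited table was not alike throughout, and this bears on each value below. Between rows 18185 and 33642, called the middle section, 1455 control values repeat to the last digit a value up to 20 rows above; the rows before and after are called the first and last sections. Over all usable probe sets the median absolute differences of the 3 sections, in table order, were 0.04, 0.09 and 0.12, and the arrays correlated across probe sets, which are not independent, with r = 0.992, 0.977 and 0.977. The members' probe sets lay 5 in the first, 10 in the middle and 5 in the last section. None of the 20 had a value of the step series or a control value repeated from above. To give each difference a scale, the share of usable probe sets in the same section, with a mean intensity within 0.5, that differed by at least as much in either direction is given as its rank share; it describes these arrays and is not a p-value.

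Among the genes of damage recognition, neither reached 2-fold. Xpc, which encodes the lesion sensor of the global branch, read 7.58 in the control and 7.57 in the knockdown on its single probe set (-0.01, in the first section). Its values were thus nearly equal, with a rank share of 91.0%. Ddb2, the damage-specific DNA-binding protein, had 7.18 and 7.69 on its brighter probe set (0.51, middle section, rank share 17.2%). Its other probe set had 6.46 and 6.29 (-0.17, first section, rank share 16.4%), so the direction for Ddb2 differed between its probe sets. The brighter of them carries the suffix s, which marks probes shared by transcripts of more than 1 gene, and the other the suffix a, which marks alternative transcripts.

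Ercc8, the Cockayne syndrome A protein of the transcription-coupled branch, was slightly lower on all 3 of its probe sets. It had 7.87 and 7.79 on the brightest (-0.08) and 7.37 and 7.24 on the next (-0.14), both in the first section, and 3.57 and 3.50 on the dimmest (-0.07), in the last section. The differences spanned 0.07 between them, and their rank shares were 32.8%, 16.5% and 54.3%, so none stood far out from probe sets of like intensity. The last 2 were designed from the same cDNA record and are not separate evidence.

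Xab2, the XPA-binding protein, gave the largest difference of the group, and it rested on 1 of 3 probe sets. That probe set, designed from the gene's RefSeq transcript, read 6.56 in the control and 10.85 in the knockdown, a difference of 4.28 or 19.5-fold higher. It stood at the 62.5th percentile of the control array and the 95.8th of the knockdown array, and 0.346% of 868 probe sets of like intensity in its section differed by as much. The other probe sets had 4.08 and 3.41 (-0.68) and 2.93 and 3.26 (0.33), both with the suffix x for probes that can bind unrelated transcripts, and both dim. The 3 differences had a median of 0.33, so neither size nor direction was shared across the gene.

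The Xab2 values lay in the part of the table with repeated control values. All 3 probe sets were in the middle section, with 4 repeated control values within 20 rows of the brightest and 5 and 6 near the others. Such neighbours were not particular to Xab2. In that section 6 lay near the probe set of Ddb2, 6 near Xpa, 3 near Ercc2 and 1 near Ercc3. The Ercc1 probe sets there had 2, 0 and 2. The knockdown value of the brightest Xab2 probe set also stood, to the last deposited digit, in the control column at row 26402. That row was a probe set of Lrrc66, a leucine-rich repeat gene, whose own knockdown value was 10.26. Such a match to a control value over 20 rows away was found for 226 of 43045 usable knockdown values, and 142 of these lay in the middle section. Of those 142, 43 (30.3%) were at probe sets that differed by at least 2-fold, against 701 of all 14001 usable probe sets there (5.01%). In the first and last sections 84 knockdown values had such a match and 0 of them differed by 2-fold. In the control column the dimmest Xab2 value was repeated by a probe set below it. The part of these repeats in the Xab2 difference was not tested. Shifting the columns against each other by up to 20 rows gave correlations of at most 0.346 in the middle section, against 0.977 without a shift. These correlations are set by all rows of the section, so they cannot show whether single values, such as that of Xab2, stand at the wrong row.

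The TFIIH helicases had small or single-probe-set differences. Ercc3, the XPB helicase that opens DNA at promoters and lesions, read 7.35 in the control and 6.48 in the knockdown on its single probe set (-0.86, 1.82-fold lower, middle section). Apart from Xab2 this was the largest difference of the group, and 10.5% of 1412 probe sets of like intensity in the section differed by as much. Ercc2, the XPD helicase, had 8.13 and 8.30 on its brighter probe set (0.17, last section, rank share 46.1%) and 5.76 and 5.45 on the dimmer (-0.31, middle section, rank share 27.0%), so its direction was not shared.

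Xpa, the damage verification protein, was higher on all 3 of its probe sets by nearly the same amount. The brightest had 7.08 and 7.39 (0.31, last section), the next 4.37 and 4.74 (0.37, middle section) and the dimmest 3.13 and 3.50 (0.36, last section). The differences spanned 0.06 over probe sets of different intensities, of which the brightest and the dimmest lay in the same section. The probe set in the middle section carries the suffix s, described above for Ddb2. The dimmest stood at the 7.0th percentile of the control array. Their rank shares were 31.3%, 17.0% and 16.8%, so each taken alone was common for its section. The last 2 were designed from the same expressed sequence tag, and both were below the intensity filter.

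Ercc1 and Ercc5, of the nucleases, were lower on the knockdown array on each of their probe sets. Ercc1, which forms the 5′ nuclease with Ercc4, had 9.51 and 9.37 on its brightest probe set (-0.14, middle section) and 7.60 and 7.45 on the one designed from the RefSeq transcript (-0.15, first section). Its dimmer probe sets had 4.76 and 4.69 (-0.07) and 4.21 and 3.77 (-0.44), both in the middle section. The rank shares ran from 12.4% to 52.5%, and the 4 probe sets came from different sequence records. The brightest carries the suffix s, described above for Ddb2. Ercc5, the 3′ nuclease XPG, had 8.11 and 7.71 on its single probe set (-0.40, last section, rank share 18.1%).

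The size of the members' differences varied between the sections. In the first section all 5 member probe sets, of Xpc, Ddb2, Ercc8 and Ercc1, were below 0, from -0.17 to -0.01. The median difference over all usable probe sets of that section was also below 0, at -0.0048. The members' median absolute difference there was 0.14 against 0.04 over all single-gene probe sets of the section. In the middle section the member probe sets ran from -0.86 to 4.28 with a median absolute difference of 0.40 against 0.15, and in the last from -0.40 to 0.36 with 0.31 against 0.17. By the 2-fold rule 1 of 10 was past it in the middle section, where 6.88% of single-gene probe sets were, and 0 of 5 in each of the others, where 1.79% and 6.32% were. Of the 6 members with more than 1 probe set, 3 kept their sign on all of them: Xpa was above 0, Ercc1 and Ercc8 below.

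**Figure D2:**
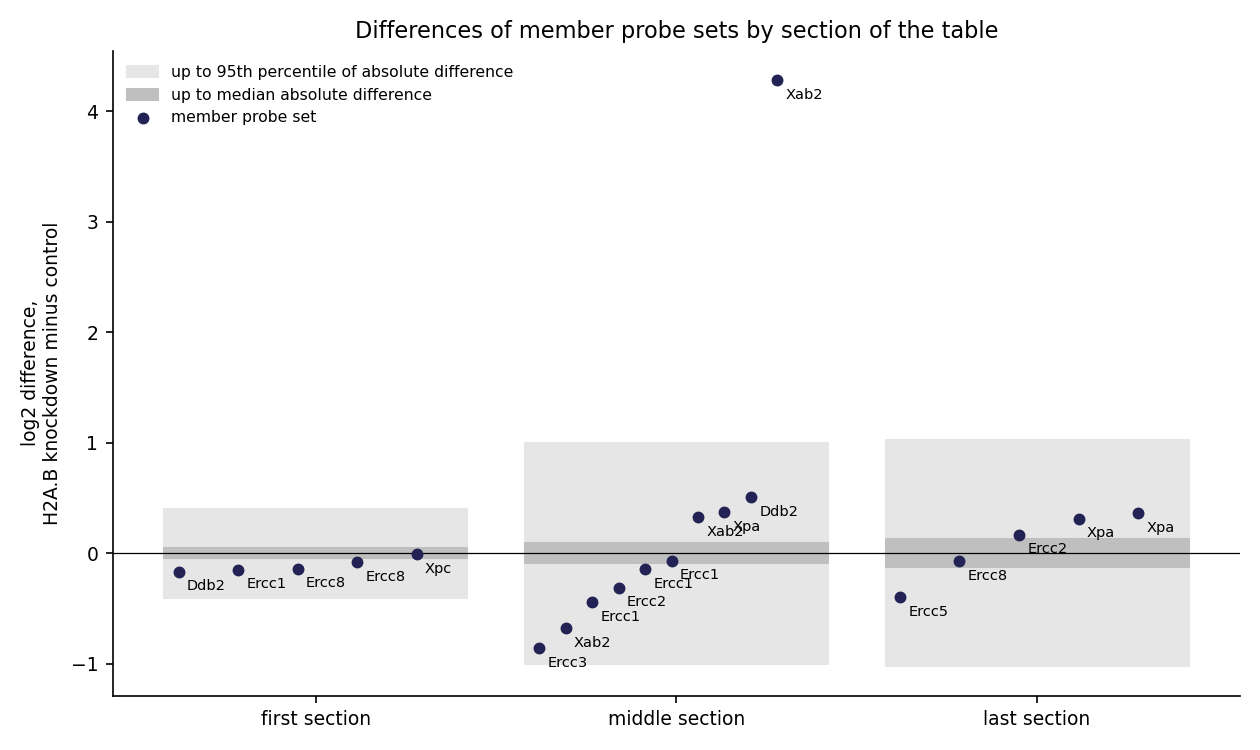
Log2 difference (vertical axis, knockdown minus control) of each member probe set, by section of the deposited table; each point is 1 probe set on 1 array per group, the dark band ends at the median absolute difference of all usable probe sets of the section and the light band at its 95th percentile. The light band reaches 0.40 in the first, 1.00 in the middle and 1.02 in the last section, and only the Xab2 probe set at 4.28 lies outside it.

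Other genes of the pathway differed little between the arrays. Of 48 further repair genes 45 were measured and 44 passed the intensity filter; 20 of these were above 0 and 24 below, with a median of -0.01 against -0.0016 over all genes past the filter. By the 2-fold rule 0 were higher and 0 lower, against 0.676% and 1.28% of all genes past the filter, and 43 were within 0.5, where 92.6% of all genes past the filter were. Gtf2h1, Gtf2h2 and Pold4 were named by 0 probe sets on their own.

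In damage recognition Cetn2, the centrin that binds Xpc, was higher by 0.51 on its single probe set (9.33 and 9.84), which carries the suffix x and lies in the middle section. Rad23b, a partner of Xpc, had 10.32 and 10.51 (0.19), with 0.17 and 0.02 on its dimmer probe sets. Cul4a, a ubiquitin ligase scaffold that works with Ddb2, differed by -0.16 and Ddb1 by 0.10. The 6 measured genes of this step had a median of 0.06, with 4 above 0.

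Aqr, Isy1 and Ppie, which form the splicing complex with Xab2, were near equal on both arrays on their brightest probe sets. Aqr differed by 0.03 on its brightest probe set (10.80 and 10.83), Isy1 by -0.04 and Ppie by -0.07. Prpf19, of the splicing complex that is also linked to repair, differed by 0.06 on its brightest probe set and Usp7, the deubiquitinase of the transcription-coupled branch, by 0.04. The 9 of 10 genes of this step past the filter ran from -0.07 to 0.06, with 4 above 0 and 5 below. Uvssa, which brings Usp7 to the stalled polymerase, was below the filter, at 5.58 and 5.53.

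The list of other TFIIH genes also held Mms19 (0.0013), which is not a subunit of TFIIH. Of the 7 measured genes of the list 5 were below 0, where 4191 of 8282 genes past the filter were, and their median was -0.11. Gtf2h4 differed by -0.22, Gtf2h3 by -0.19, the cyclin gene Ccnh by -0.13 and Mnat1, which assembles the kinase module, by -0.11. Cdk7, the TFIIH kinase, had a difference of 0.01 on its brightest probe set (10.35 and 10.37), while 1 dim probe set of the first section had 4.34 and 2.86 (-1.47). That was the only probe set past 2-fold among the 97 usable ones of these further repair genes, where 1.12% of all single-gene probe sets were higher and 3.07% lower. The other 3 Cdk7 probe sets differed by -0.16, 0 and -0.12.

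Of the genes that act with the nucleases, Slx4 differed by -0.22 and Ercc4, the partner of Ercc1, by -0.13 on its brightest probe set and by -0.20, 0.12 and -0.02 on the others. In the RPA complex, which coats single-stranded DNA, Rpa3 differed by 0.29 and Rpa2 by -0.06. The 5 genes had a median of -0.06. In gap filling and ligation 9 of 17 measured genes were above 0, with a median of 0.0031. The polymerase delta genes Pold1 and Pold2 were at 0.43 and 0.28, and Pole and Polk at -0.25 each; all but Polk lie in the middle section.

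Of the 17 listed p53 targets, which respond to DNA damage, 16 were measured, and Bax was named by 0 probe sets on its own. The filter was passed by 15, with 7 above 0, 8 below and a median of -0.0014. By the 2-fold rule 0 were past it in either direction, where 0.676% of all genes past the filter were higher and 1.28% lower. Sesn2 differed by -0.65 (0.01 on its dimmer probe set), Gadd45a by -0.51, Phlda3 by -0.28 and Polh, a translesion polymerase, by -0.27 on its brightest probe set and 0.07 and -0.06 on the others.

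**Figure D3:**
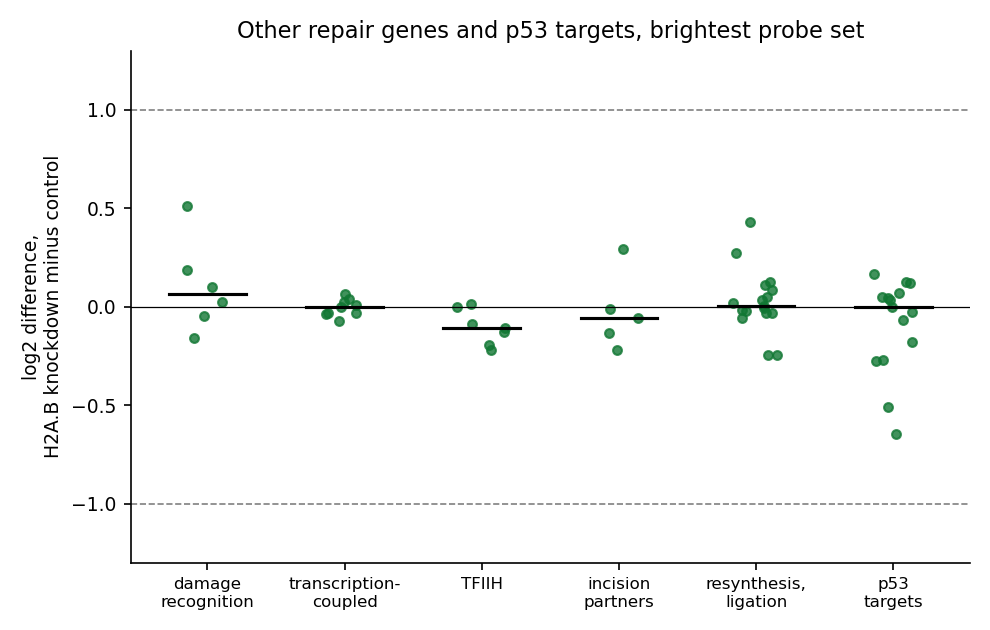
Log2 difference (vertical axis, knockdown minus control) of further repair genes by step and of p53 targets, each point being a gene's brightest probe set past the intensity filter, the bar the median and the dashed lines the 2-fold rule. All points lie between the dashed lines, from -0.65 for Sesn2 to 0.51 for Cetn2.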

How the data were processed

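The deposited table holds 45118 probe sets and 1 column per group. Per the submitters' processing notes, the authors made the values with RMA, no version stated. The scale is not stated; the control column, from 0.801 to 14.5, was used as the authors' deposited log2 intensities. Among the deposited knockdown values 616 form a series rising by exactly 1 (rows 2054 to 4710) and 2 others exceed 20; these were left out, as were 1455 control values repeated from up to 20 rows above. In all 43045 probe sets stayed. Arrays give no read counts, and their number limits the precision.

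Genes were named from the platform annotation, and 28898 probe sets named 1 gene. Each gene was read from its brightest probe set (mean of both arrays). The filter was the median of gene means, 6.73. With 1 array per group no test was run; a difference of 2-fold was the size rule. The procedure was tested on simulated data. Members and lists were chosen with earlier results of these data known. Named were all members on every probe set and list genes with a probe set past 2-fold. Of the list genes past the filter, up to 4 per list with the largest difference were named. Aqr, Uvssa, Mms19, Pou5f1, Sox2 and the differentiation markers below the filter were named outside this rule. A listed repair gene is not reported here. Promoters came from RefSeq (GRCm38.p6), where 7 members matched after member windows on 1 chromosome were left out. Python 3.11.15 with pandas 2.3.3 was used. Alternatives were 9 planned and 4 chosen after seeing the data.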

Additional observations from a re-analysis of the deposited data

How the results depend on the processing

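The 2-fold call on Xab2 decides the count of 1 probe set and 1 gene higher. The gene count was 0 when genes were summarised by the median of their probe sets and when the filter was raised to the 75th percentile (8.82, above the mean of Xab2). In the first of these settings Xab2 had a median intensity of 3.75, below the filter, and so was not counted. The median of its differences was 0.33. Among the settings chosen after seeing the data, both counts were 0 when values standing elsewhere in the table were left out, without the middle section, and in the first section alone, each of which leaves out that probe set by construction. With a 1.5-fold rule 2 probe sets (Ercc3 and an Xab2 probe set) and 1 gene (Ercc3) were lower. With the median over probe sets Ddb2 moved to 0.17 and Ercc2 to -0.072. The other 186 of 198 recomputed values stayed within 0.065, the median SD over the differences of a gene's probe sets, or, for counts, within 1.5 times; the widest such move was that of the median over member probe sets, -0.074 as reported and -0.139 in the first section alone. Centring moved no member by more than 0.01. Keeping the repeated control values, leaving out both members of repeated pairs and leaving out suffixed probe sets left the Xab2 difference at 4.28. No paired analysis was possible because there was 1 array per group, and no replicate could be left out. Settings that left out all probe sets of a gene, or put it below the filter, gave no value for it. Signal over background was not analysed, and 9 of the 20 probe sets lay below the intensity filter.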
